A study of Mus musculus with 12 samples.

Results

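The 10 genes described here encode 6 matrix metalloproteinases (Mmp2, Mmp3, Mmp9, Mmp11, Mmp13 and Mmp14) and the 4 tissue inhibitors of metalloproteinases (Timp1, Timp2, Timp3 and Timp4). They were taken by gene symbol from a table of 56748 mouse genes, and each symbol matched 1 gene. Their transcripts were counted by bulk RNA sequencing of 10T1/2 cells (CH310T1/2 in the sample records, genotype WT), a mouse embryo line with fibroblast-like growth. In all groups the cells were serum-starved (overnight before detachment, per the study's methods), held for 1 h in suspension and then grown for 18 h on hydrogels of 12 kPa that carried a coat of type I collagen (0.05 mg/ml). Low serum of 0.5% FBS was used in all groups. The sources differ on the step, as the sample records give it for the suspension, whereas the study's methods give serum-free medium there and low serum for the starvation and the culture on gels. The collagen was polymerized alone for the col1 group. For the col1-ACLP group it was polymerized with 30 nM recombinant ACLP (aortic carboxypeptidase-like protein), which is found outside cells in the collagen matrix. Cells of the col1-ACLP+SB group were plated on the same ACLP-containing collagen with 5 µM SB431542, an inhibitor of the TGFβ type I receptor kinase ALK5. Each group had 4 libraries, 12 in all. There was no group with SB431542 on col1 without ACLP, so the inhibitor can be read only in the presence of ACLP, and all values come from 1 cell line at 1 time. The comparisons ask which of the genes differ in cells on collagen-bound ACLP, and which still differ when ALK5 is inhibited.

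Matrix metalloproteinases are zinc-dependent endopeptidases that are made as inactive proenzymes and cut collagens, other matrix proteins and cell surface proteins once their propeptide is removed. TIMPs bind the active site of these enzymes and block them, and TIMP2 also takes part in a complex at the cell surface in which membrane-anchored MMP14 activates the proenzyme of MMP2. In fibroblasts and their progenitors the balance of these proteins bears on how collagen is turned over, and transcript levels do not measure their activity.

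Total counts ranged from 29246154 to 52201922 per library. Levels are given as CPM (counts scaled to library size by the TMM method) and, where genes are compared with each other, as FPKM (the same CPM divided by the gene length in the table). Each of the 10 fibroblast or mesenchymal marker genes examined was expressed, with a summed level of 34200 to 35400 CPM on col1, 44100 to 53000 CPM with ACLP and 40700 to 46200 CPM with ACLP and SB431542. This sum was thus higher in both groups with ACLP, and its part in the results below was not tested. The list did not move as one. In each comparison with col1, 2 of the 10 genes were called higher and 4 lower, where 17.9% of all tested genes were called for col1-ACLP and 9.13% for col1-ACLP+SB. Between both groups with ACLP, Col1a2 and Ly6a were called lower with SB431542 and none higher, where 1.48% of all tested genes were called. Mean Col1a1 was 11900, 20960 and 18380 CPM on col1, with ACLP and with ACLP and SB431542, and mean Col1a2 was 7307, 11490 and 9946 CPM. Mean Pdgfra, a receptor gene of the list, was 419.7, 248.4 and 277.8 CPM, lower in both groups with ACLP (log2 fold changes −0.76 and −0.60, adjusted p = 1.98e-10 and 3.32e-08, edgeR). The macrophage gene Adgre1, the neutrophil genes S100a9 and Elane and the epithelial gene Epcam were at 0 counts in all 12 libraries. Other genes of these lists were not at 0. The leukocyte gene Ptprc had 12 counts in all, and the neutrophil genes S100a8 and Mpo had 4 each. The highest of the leukocyte list was Cd68 at 5.32 to 10 CPM, and that of the epithelial list Cdh1 at 1.88 to 3.84 CPM. Summed neutrophil markers reached at most 0.132 CPM, leukocyte markers 6.17 to 12.8 CPM and epithelial markers 2.56 to 4.84 CPM, with ranges that overlapped between groups. Summed endothelial markers were at 5.06 to 8.3 CPM on col1, 7.52 to 9.85 CPM with ACLP and 4.3 to 6.41 CPM with ACLP and SB431542, so both groups with ACLP did not overlap. Nearly all of this sum was Tek, lower with SB431542 than with ACLP alone (log2 fold change −0.86, adjusted p = 0.0116, edgeR), whereas the defining endothelial genes Pecam1, Cdh5 and Kdr stayed at or under 0.309 CPM in every library. In bulk RNA, a change in the number of cells that express a gene and a change in RNA per cell cannot be told apart. On a principal component holding 19.5% of the variance of all tested genes, col1 replicate 2 lay at −86.7, far from the other col1 libraries (−11.1 to −8.97). Without it, 4 genes were called for col1-ACLP against col1 and 3 for col1-ACLP+SB against col1, as with it, now of 9 tested. Over all genes 2727 and 1414 of 16915 were called in that fit. The log2 fold changes of the 4 genes tested in both fits and called in neither comparison were then 0.007 and 0.02 for Mmp2, −0.78 and −0.18 for Mmp9, −1.23 and −1.37 for Mmp13 and −0.06 and −0.10 for Timp1 in these 2 comparisons. Mmp11, not called for col1-ACLP+SB against col1, was at −0.05 there. The sample records do not say whether libraries came from separate cultures, whereas the study describes them as biological replicates, and p-values measure the spread between these libraries.

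Of the 10 genes, 8 passed the filter on low counts and were tested, and Mmp3 and Timp4 did not pass. The level per length differed by several orders of magnitude between the genes. On col1, Timp2 was the highest at 833 ± 21.0 FPKM (SD, n = 4). By its mean over all 12 libraries, 753 FPKM, it ranked 26 among the 16465 tested genes. Mmp2 followed at 256 ± 10.9 FPKM, Mmp14 at 124 ± 3.87 FPKM and Timp1 at 75.8 ± 9.63 FPKM. Timp3 was at 35.5 ± 2.32 FPKM and Mmp11 at 30.4 ± 1.08 FPKM. These 6 genes lay far above the median of the tested genes over the 12 libraries, 3.93 FPKM, and no neighbours in this order had overlapping ranges on col1. Mmp9 was next at 0.627 ± 0.0686 FPKM. Mmp13, Mmp3 and Timp4 were the lowest, and their ranges overlapped with each other. The order was the same on col1-ACLP, but there Timp1 (72.6 ± 6.07 FPKM) and Timp3 (69.1 ± 4.60 FPKM) had overlapping ranges. On col1-ACLP+SB, Timp3 was at 51.4 ± 2.57 FPKM and lay below Timp1 (70.8 ± 8.72 FPKM) without overlap.

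**Figure D1:**
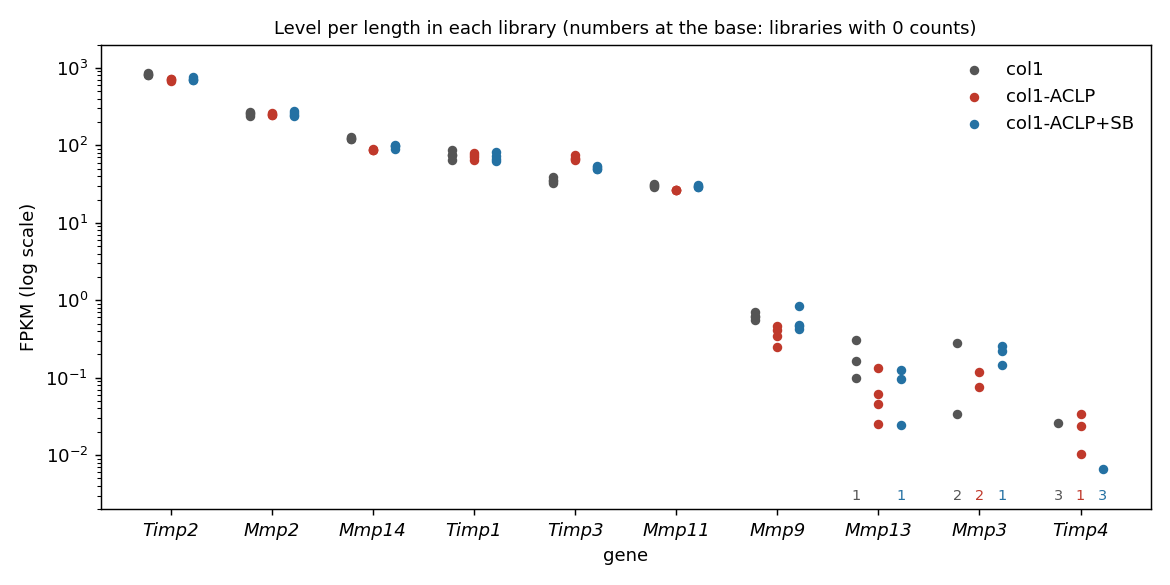
Level of each gene per length (FPKM, log axis) in each of the 12 libraries, coloured by group, with genes in order of their level and the number of libraries with 0 counts written at the base. Timp2, Mmp2, Mmp14, Timp1, Timp3 and Mmp11 sit well above 10 FPKM, Mmp9 lies under 1 FPKM, and Mmp13, Mmp3 and Timp4 lie lowest.

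The sequence before the start site is shown for a pair of genes whose transcripts were abundant and differed between groups (Timp3 and Mmp14) and for a pair with hardly any counts (Mmp3 and Mmp13), because these pairs differ in the letters they carry. Sequences and start sites are from RefSeq (build GRCm38.p6), which held an entry for 8 of the 10 genes (none for Mmp2 and Mmp9), and were placed on GRCm39 by exact match. All 4 lie on the plus strand and are printed 5′ to 3′, Timp3 from chr10:86136026-86136235, Mmp14 from chr14:54668805-54669054, Mmp3 from chr9:7445572-7445821 and Mmp13 from chr9:7272264-7272513. Capitals mark matches on either strand to the AP-1 letters TGAGTCA, the TATA letters TATAAA and the GC box letters GGGCGG. Adjacent GC boxes in Mmp14 run together without overlapping.
Timp3: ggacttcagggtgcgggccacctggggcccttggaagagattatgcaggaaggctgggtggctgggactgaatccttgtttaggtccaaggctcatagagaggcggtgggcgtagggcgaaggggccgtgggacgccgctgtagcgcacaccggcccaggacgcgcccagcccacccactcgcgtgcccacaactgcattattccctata
Mmp14: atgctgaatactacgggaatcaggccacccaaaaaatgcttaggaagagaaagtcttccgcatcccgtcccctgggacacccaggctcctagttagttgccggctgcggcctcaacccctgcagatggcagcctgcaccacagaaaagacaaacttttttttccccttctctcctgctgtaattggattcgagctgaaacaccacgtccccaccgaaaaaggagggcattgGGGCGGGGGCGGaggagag
Mmp3: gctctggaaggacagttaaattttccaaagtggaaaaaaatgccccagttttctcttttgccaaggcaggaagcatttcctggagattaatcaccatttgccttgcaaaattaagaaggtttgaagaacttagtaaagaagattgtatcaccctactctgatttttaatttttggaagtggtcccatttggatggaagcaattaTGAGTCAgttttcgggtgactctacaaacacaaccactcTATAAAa
Mmp13: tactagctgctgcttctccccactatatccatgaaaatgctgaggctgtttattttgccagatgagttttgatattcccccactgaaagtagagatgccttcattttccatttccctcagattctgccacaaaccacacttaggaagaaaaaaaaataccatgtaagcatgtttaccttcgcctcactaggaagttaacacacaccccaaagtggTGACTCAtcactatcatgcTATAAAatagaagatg

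Within the 250 bases before the RefSeq start, Mmp3 and Mmp13 each held 1 AP-1 match and 1 TATA match and no GC box, with a GC content of 37.6% and 40.4%. Mmp14 held 2 GC boxes and Timp3 1, with a GC content of 55.2% and 65.6%, and neither held an AP-1 or TATA match. The GC box of Timp3 lies in the last 40 bases of its window, after the gene start given in the count table, and those bases are not printed. The windows of Mmp11, Timp1 and Timp2 also held a GC box and neither of the other motifs, and the window of Timp4 held none of the 3. RefSeq starts of Mmp11 and Timp2 lie 3994 and 329 bases inside the gene spans of the count table, so their windows fall within those spans. Of 32851 RefSeq promoter windows of the same length, 4.46% held the AP-1 letters, 12.4% the TATA letters and 32.7% the GC box. Another set of letters, AGGAAG (an ETS or PEA3 site), was found in 29.5% of all windows and in those of Mmp3, Mmp13, Mmp14, Timp1, Timp3 and Timp4, and is not capitalised. These matches describe letters in a window and do not show that a factor bound there.

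Between col1-ACLP and col1, 4 of the 8 tested genes were called at an adjusted p-value under 0.05 in edgeR's quasi-likelihood test, against 17.9% of all tested genes. Timp3 was higher on ACLP (9.52% of all tested genes were called higher), and Mmp14, Timp2 and Mmp11 were lower (8.41% were called lower). Only Timp3 also passed a log2 fold change of 0.58, the size used in the study's methods, which 4.97% of tested genes passed in either direction. The ranges of both groups did not overlap for 5 of the 8 genes (the 4 called and Mmp9), against 21.2% of all tested genes. The median log2 fold change was −0.22 over the 8 genes and −0.0099 over all tested genes. The other 4 genes, Mmp2, Mmp9, Mmp13 and Timp1, did not pass the test.

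In the col1-ACLP+SB group, 3 of the 8 genes were called against col1, Timp3 higher and Mmp14 and Timp2 lower, and 9.13% of all tested genes were called (4.60% higher and 4.54% lower). None of the 3 passed 0.58, which 2.28% of tested genes did. Groups did not overlap for those 3 genes, against 13.0% of tested genes. The col1 libraries are shared by both comparisons, so their fold changes are set side by side below and are not independent of each other. Between col1-ACLP+SB and col1-ACLP, which contain the same matrix and differ by the inhibitor, Timp3 was called lower and no other gene was called, against 1.48% of all tested genes (0.571% higher and 0.905% lower). Its change did not reach 0.58 in size, which 0.128% of tested genes passed. Ranges did not overlap for 2 of the 8 genes (Timp3 and Mmp11), against 8.17% of tested genes.

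**Figure D2:**
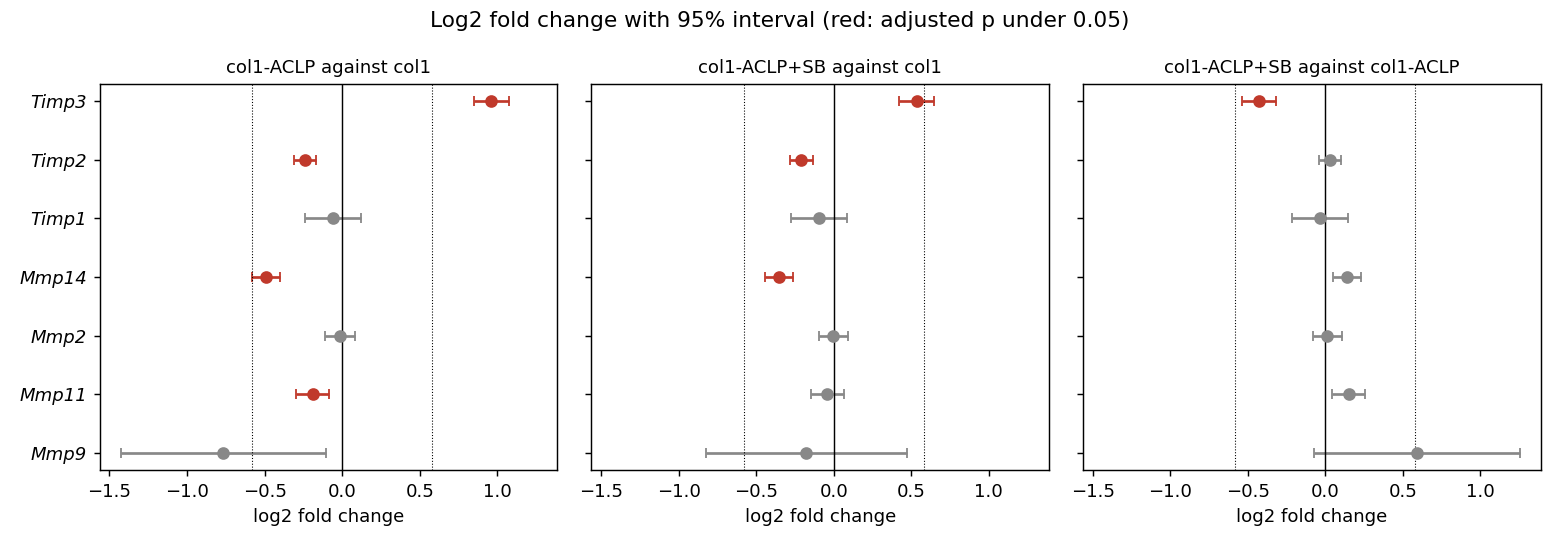
Log2 fold change from the edgeR fit (x axis) with its 95% interval for 7 genes (y axis) in the 3 comparisons, with called genes in red and dotted lines at 0.58 in each direction. Mmp13 was tested but is left out for its wide interval (−3.20 to 1.02 for col1-ACLP against col1), and Timp3 is the only gene called in all 3 panels.

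Mmp14 (ENSMUSG00000000957, GRCm39 chromosome 14 from 54669069 to 54682821, plus strand) encodes the membrane-anchored collagenase and activator of pro-MMP2. Its level was 713, 745, 728 and 766 CPM in the 4 col1 libraries, 541, 524, 518 and 513 CPM on col1-ACLP and 533, 580, 609 and 592 CPM on col1-ACLP+SB. Every library with ACLP lay below every col1 library, and the ranges of both ACLP groups overlapped. The group means were 738 ± 23.1 CPM for col1 and 524 ± 12.0 CPM for col1-ACLP, a percent change of −29.0 by the fit. This is a log2 fold change of −0.49 (SE 0.0440, Benjamini-Hochberg adjusted p = 4.14e-09 by the quasi-likelihood test of edgeR). With SB431542 the mean was 579 ± 32.6 CPM and the log2 fold change against col1 was −0.35 (SE 0.0439, adjusted p = 2.30e-06, same edgeR test). Against col1-ACLP the inhibitor group differed by a log2 fold change of 0.14 (95% interval 0.05 to 0.23), which did not pass the edgeR test (adjusted p = 0.111). That last comparison sat near the threshold, since Mmp14 was called higher in 3 of 21 other analyses, among them DESeq2 (adjusted p = 0.0350) and edgeR without col1-ACLP+SB replicate 1 (adjusted p = 0.0466). Without col1 replicate 2 the log2 fold changes against col1 were −0.49 and −0.35.

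Mmp2 (ENSMUSG00000031740, chromosome 8 from 93553919 to 93580048, plus strand) encodes gelatinase A, which cuts denatured collagen and basement membrane collagen. It was at 816, 902, 854 and 879 CPM in col1, 888, 837, 832 and 856 CPM on col1-ACLP and 831, 798, 926 and 891 CPM on col1-ACLP+SB. The 3 groups overlapped, with means of 863 ± 36.9, 853 ± 25.5 and 861 ± 57.99 CPM. No difference passed the edgeR test (adjusted p = 0.881, 0.989 and 0.957 for col1-ACLP against col1, col1-ACLP+SB against col1 and col1-ACLP+SB against col1-ACLP). The 95% interval of the log2 fold change on ACLP ran from −0.11 to 0.08, so a change in Mmp2 as large as that of Mmp14 lay outside it. An antisense long noncoding gene, Gm45472, shares 860 exon bases with Mmp2, but it had 822 counts in all against 367520 for Mmp2.

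Mmp9 (ENSMUSG00000017737, chromosome 2 from 164782700 to 164797770, plus strand) encodes gelatinase B. Its level was low, at 2.53, 2.17, 1.94 and 2.23 CPM in col1, 1.47, 1.66, 0.868 and 1.20 CPM on col1-ACLP and 1.51, 1.68, 2.97 and 1.65 CPM on col1-ACLP+SB. All 4 col1-ACLP libraries lay below all 4 col1 libraries, and the inhibitor group spanned both. The log2 fold change on ACLP was −0.77 (SE 0.320) and did not pass correction over all genes (adjusted p = 0.107, same edgeR test). Counts per library ran from 26 to 154, and the difference between the inhibitor group and col1-ACLP (log2 fold change 0.59, adjusted p = 0.470, edgeR) rested on an interval from −0.07 to 1.25. It ran from 0.31 (without col1-ACLP+SB replicate 3) to 0.73 with a library left out.

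Mmp11 (ENSMUSG00000000901, chromosome 10 from 75759056 to 75772330, minus strand) encodes stromelysin 3, which is activated inside the cell by furin-type convertases. It was at 87.8, 83.6, 80.8 and 85.7 CPM in col1, 74.2, 74.2, 73.4 and 74.1 CPM on col1-ACLP and 85.3, 80.9, 79.8 and 82.6 CPM on col1-ACLP+SB. The 4 col1-ACLP libraries lay close together and below all others, and the inhibitor group overlapped with col1. The group mean of 84.5 ± 3.00 CPM was lowered to 74.0 ± 0.387 CPM on ACLP (log2 fold change −0.19, SE 0.0526, adjusted p = 0.0110, edgeR). In the inhibitor group the log2 fold change against col1 was −0.04 (adjusted p = 0.754, edgeR), and against col1-ACLP it was 0.15 with an interval from 0.04 to 0.26 (adjusted p = 0.178, edgeR). Mmp11 was thus called in 1 of the 3 comparisons, and its difference between the groups with and without SB431542 was not past the threshold. Chchd10 on the opposite strand shares 155 exon bases with it and had 412 counts in all, against 34309 for Mmp11. The strand setting of the counting was not given in the sources used here, so reads on shared bases cannot be told apart.

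Mmp13 (ENSMUSG00000050578, chromosome 9 from 7272514 to 7283331, plus strand), an interstitial collagenase, and Mmp3 (ENSMUSG00000043613, chromosome 9 from 7445822 to 7455975, plus strand), a stromelysin that can activate other proenzymes, lie in a cluster of Mmp genes. Mmp13 had 0, 10, 27 and 19 counts on col1, 4, 6, 2 and 10 counts with ACLP alone and 9, 10, 0 and 2 counts with ACLP and SB431542. It passed the filter, but its groups overlapped and no comparison passed the edgeR test (log2 fold changes of −1.09, −1.23 and −0.14, adjusted p = 0.551, 0.583 and 0.988). Without col1 replicate 3 the first 2 were −0.42 and −0.55, and by limma-voom the first was −0.19. Mmp3 had 0, 0, 2 and 22 counts on col1, 0, 5, 0 and 6 counts with ACLP alone and 0, 12, 24 and 8 counts with ACLP and SB431542, 79 in all, and 5 libraries were at 0. A count of 0 allows a level of up to 3 counts, which is 0.0579 to 0.106 CPM in these libraries, and this limit covers counting error only because the reads carry no molecular identifiers. With no filter on low counts, Mmp3 did not pass the edgeR test in any comparison (adjusted p from 0.630 to 0.830). The neighbouring genes Mmp1a, Mmp1b and Mmp12 had 0 counts in every library.

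**Figure D3:**
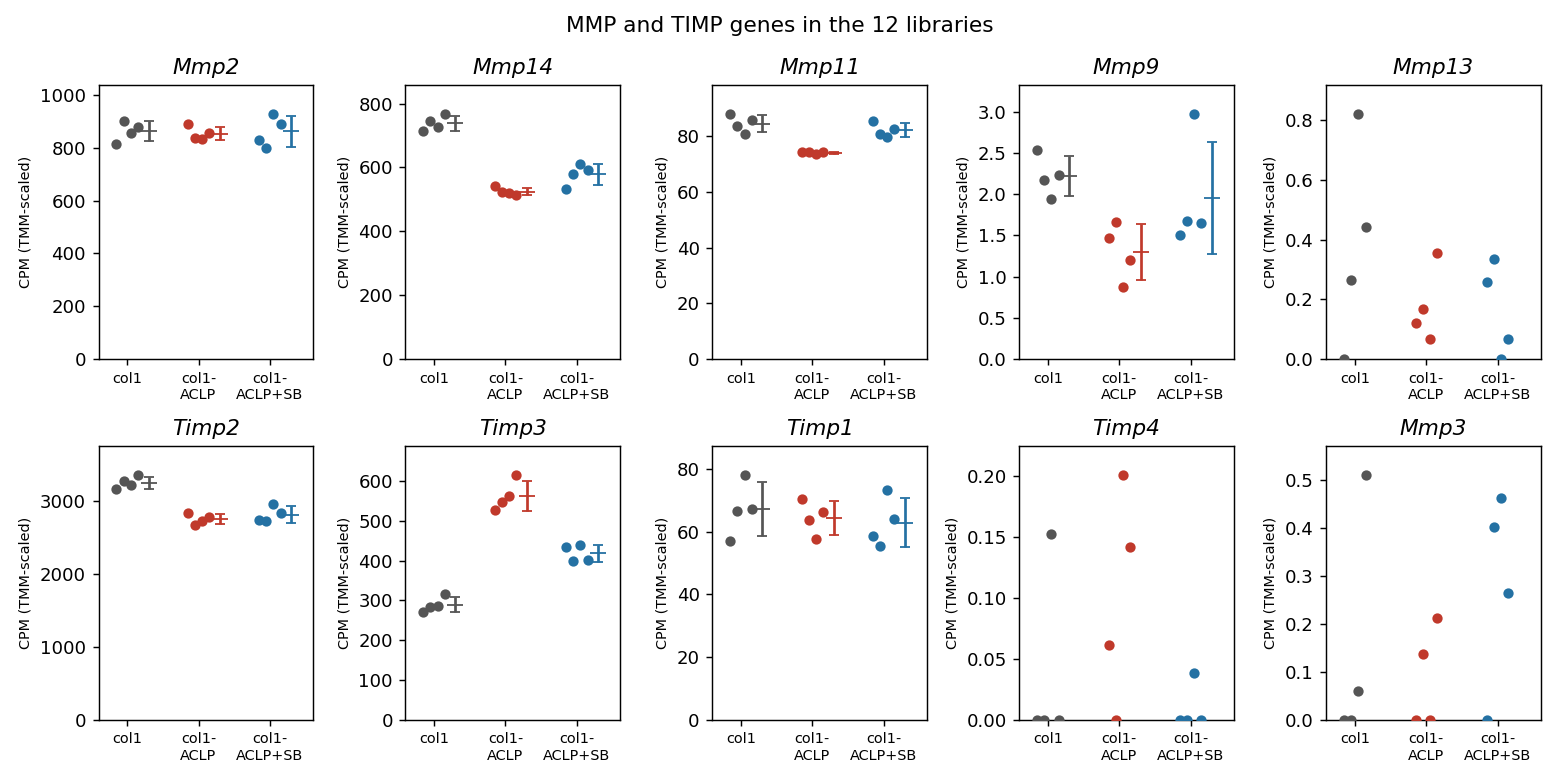
Level of the 10 genes (y axis, TMM-scaled CPM from 0) in the 4 libraries of each group (points, in replicate order), with the mean and SD beside them except for the 3 genes with libraries at 0. Mmp14 and Timp2 lie lower and Timp3 higher in both groups with ACLP than on col1, while Mmp2 and Timp1 overlap in all 3 groups.

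Timp3 (ENSMUSG00000020044, chromosome 10 from 86136236 to 86185370, plus strand) encodes the inhibitor that is held in the extracellular matrix and that also blocks ADAM17 and aggrecanases. It was at 270, 284, 287 and 315 CPM in col1, 527, 547, 562 and 615 CPM on col1-ACLP and 433, 399, 440 and 402 CPM on col1-ACLP+SB. No ranges overlapped, and the inhibitor group lay between the other two. The mean rose 1.95-fold by the fit, from 289 ± 18.9 to 563 ± 37.5 CPM (log2 fold change 0.96, SE 0.0540, adjusted p = 8.40e-13, edgeR). Of the tested genes, 6.76% had a larger change in either direction. With SB431542 the mean was 418 ± 20.9 CPM, which was higher than on col1 by a log2 fold change of 0.53 (SE 0.0537, adjusted p = 7.34e-08, edgeR) and lower than on col1-ACLP by one of −0.43 (SE 0.0535, adjusted p = 7.13e-05, edgeR). Without col1 replicate 2 the log2 fold change was 0.95 on ACLP and 0.53 with the inhibitor as well. The endothelial marker sum, nearly all Tek, was also lower with SB431542 than on ACLP alone, with the other endothelial markers near 0. Timp3 lies within Syn3, on the opposite strand, and shares 1734 exon bases with it, but Syn3 had 448 counts in all against 177310 for Timp3.

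Timp2 (ENSMUSG00000017466, chromosome 11 from 118191895 to 118246566, minus strand) encodes the inhibitor that bridges MMP14 and pro-MMP2. Its level was 3160, 3268.5, 3206 and 3348.5 CPM in col1, 2833, 2670, 2720 and 2768 CPM on col1-ACLP and 2730, 2715, 2954 and 2832 CPM on col1-ACLP+SB. All 8 libraries with ACLP lay below all 4 col1 libraries, and both ACLP groups overlapped. The mean on ACLP was 2748 ± 69.7 CPM against 3246 ± 81.7 CPM, with a log2 fold change of −0.24 (SE 0.0351, adjusted p = 1.22e-05, edgeR). The inhibitor group, at 2808 ± 110.5 CPM, had a log2 fold change of −0.21 against col1 (adjusted p = 1.46e-04, edgeR). Against col1-ACLP its log2 fold change was 0.03, with an interval from −0.04 to 0.10 (adjusted p = 0.810, edgeR). Without col1 replicate 2 the log2 fold changes against col1 were −0.24 for col1-ACLP and −0.21 for the inhibitor group, and that of Mmp11 on ACLP was −0.20. Cep295nl, on the same strand, shares 332 exon bases with Timp2 and had 1139 counts in all, against 1258537.

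Timp1 (ENSMUSG00000001131, chromosome X from 20736405 to 20740974, plus strand) encodes a soluble inhibitor that blocks most secreted MMPs and is a weak inhibitor of MMP14. It was at 57.1, 66.7, 78.1 and 67.2 CPM in col1, 70.4, 63.6, 57.5 and 66.2 CPM on col1-ACLP and 58.7, 55.5, 73.3 and 63.9 CPM on col1-ACLP+SB. The groups overlapped, and no comparison passed the edgeR test (log2 fold changes of −0.06, −0.10 and −0.03, adjusted p = 0.722, 0.631 and 0.937). Its intervals were wider than those of the other inhibitors tested, from −0.24 to 0.12 for col1-ACLP against col1. Timp4 (ENSMUSG00000030317, chromosome 6 from 115218853 to 115229166, minus strand), the remaining inhibitor, had 19 counts in all and was at 0 in 7 libraries. Its counts were 0, 0, 5 and 0 on col1, 2, 0, 6 and 4 with ACLP alone and 0, 0, 2 and 0 with ACLP and SB431542, and it shares 1142 exon bases with Syn2 on the opposite strand, which had 341 counts. With no filter on low counts, Timp4 did not pass the edgeR test in any comparison (adjusted p from 0.630 to 0.799).

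Because Timp3 differed in the opposite direction from Timp2 and Mmp14, the make-up of the family differed between groups. The following shares and ratios use FPKM within each library and are given without a test. Timp3 made up 3.75% ± 0.149 of the summed TIMP transcripts on col1, 8.16% ± 0.554 with ACLP and 6.10% ± 0.280 with ACLP and SB431542. Timp2 remained the main inhibitor transcript at 88.2%, 83.3% and 85.5%. Among the 6 MMP genes, Mmp2 held 62.3%, 68.7% and 66.7% and Mmp14 30.1%, 23.9% and 25.4% in the same order of groups.

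The ratio of Mmp14 to Timp3 was 3.61, 3.59, 3.465 and 3.32 in the col1 libraries, 1.40, 1.31, 1.26 and 1.14 on col1-ACLP and 1.68, 1.98, 1.89 and 2.01 on col1-ACLP+SB. No ranges overlapped for this ratio, with means of 3.50 ± 0.132, 1.28 ± 0.109 and 1.89 ± 0.150. Mmp14 to Timp2 was 0.149 ± 0.000911, 0.125 ± 0.00294 and 0.135 ± 0.00507, and Mmp2 to Timp2 was 0.307 ± 0.00872, 0.359 ± 0.00429 and 0.354 ± 0.0112. In contrast to these ratios, the sum of the 6 MMPs relative to the sum of the 4 TIMPs was 0.435 ± 0.00759 on col1, 0.435 ± 0.00626 with ACLP and 0.454 ± 0.00743 with ACLP and SB431542. The summed TIMP level was 944 ± 26.9, 847 ± 22.6 and 843 ± 38.4 FPKM, and the summed MMP level 411 ± 13.9, 368 ± 9.23 and 383 ± 20.9 FPKM. On ACLP without the inhibitor both sums were lower than on col1 while their ratio overlapped with that of col1. All 4 libraries of the inhibitor group had a higher ratio of the sums than the other 8, by a small margin (lowest 0.448 against a highest of 0.446 on col1).

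**Figure D4:**
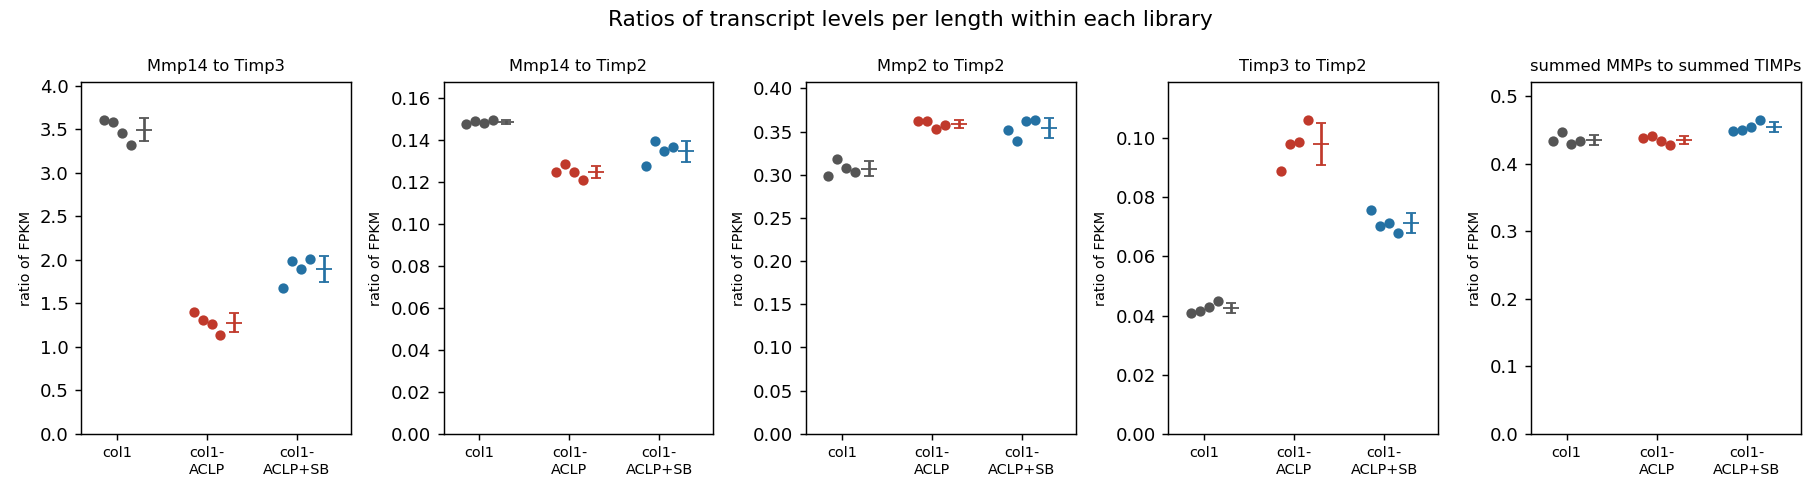
Ratios of FPKM within each library (y axes from 0) for 5 pairs of genes or sums, as points per library with the group mean and SD. Mmp14 to Timp3 has means of 3.50, 1.28 and 1.89 in the col1, col1-ACLP and col1-ACLP+SB groups without overlap, while summed MMPs to summed TIMPs stays between 0.427 and 0.464 in all libraries.

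Of 17 other MMP genes in the table, 6 passed the filter, and 1 of the 6 was called in each comparison with col1, against 17.9% of all tested genes for col1-ACLP and 9.13% for col1-ACLP+SB. Mmp19, named here after its values were seen because it was the only one called, was at 38.6 ± 1.31 CPM on col1 and lower at 33.2 ± 1.72 CPM with ACLP (log2 fold change −0.22, adjusted p = 0.0325, edgeR). It was at 33.2 ± 0.994 CPM on col1-ACLP+SB (adjusted p = 0.0487 against col1, edgeR). Without col1 replicate 2 it passed neither test (log2 fold changes −0.21 and −0.21, adjusted p = 0.0640 and 0.0900, edgeR). The other 5 tested genes, Mmp15, Mmp16, Mmp17, Mmp23 and Mmp28, were not called in any of the 3 comparisons. Mmp7 and Mmp10 had 0 counts in all libraries, as had the Mmp1a, Mmp1b and Mmp12 genes named above. The median log2 fold change of the 6 tested genes was −0.15 for col1-ACLP against col1, −0.12 for col1-ACLP+SB against col1 and −0.02 for col1-ACLP+SB against col1-ACLP.

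A list of 35 genes of MMP regulation and of protein cutting around the cell was also followed, and 26 of them were tested. It includes genes that are not MMP regulators, such as those of procollagen processing, so its counts are not counts of MMP regulators. On ACLP, 5 were higher and 5 lower than on col1, where 9.52% of all tested genes were called higher and 8.41% lower. With SB431542 6 were higher and 6 lower, where 4.60% of all tested genes were called higher and 4.54% lower. The median log2 fold changes of the list were 0.06 and −0.0087, and those of all tested genes were −0.0099 and 0.0046. Plau, Plat and Thbs1 passed 0.58 in both comparisons. Plau and Plat, the plasminogen activators, were lower on ACLP, from 17.1 ± 3.02 to 10.6 ± 2.25 CPM for Plau (log2 fold change −0.69, adjusted p = 0.00138, edgeR) and from 8.76 ± 1.44 to 5.00 ± 0.444 CPM for Plat (−0.81, adjusted p = 0.00131, edgeR). With SB431542 they were at 10.8 ± 1.56 and 4.79 ± 0.973 CPM (−0.66 and −0.87 against col1). Plau ranges overlapped between col1 and both groups with ACLP. Without col1 replicate 2 the log2 fold changes on ACLP were −0.62 for Plau and −0.71 for Plat (adjusted p = 0.00662 and 0.00673, edgeR), and the list had 5 genes higher and 6 lower on ACLP and 6 higher and 5 lower with SB431542, of 27 tested, with medians of 0.06 and 0.0073. Thbs1, a matricellular protein known to bind MMP2, rose from 1021.5 ± 38.8 to 2117 ± 185 CPM (log2 fold change 1.05, adjusted p = 1.91e-13, edgeR).

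Between col1-ACLP+SB and col1-ACLP, 2 of the 26 genes were called, against 1.48% of all tested genes, and the list's median log2 fold change was −0.08, against 0.0049 for all tested genes. Thbs1 was lower at 1796 ± 130 CPM (log2 fold change −0.24, adjusted p = 0.0211, edgeR). Bmp1, a procollagen-processing protease named here after its values were seen, was higher, at 567 ± 34.3 CPM against 477 ± 12.1 CPM on col1-ACLP and 625 ± 20.1 CPM on col1 (log2 fold change 0.25, adjusted p = 0.00375, edgeR). Like Timp3, Thbs1 lay between the col1 and col1-ACLP means when ALK5 was inhibited, whereas Plau and Plat did not pass the test between both ACLP groups (adjusted p = 0.976 and 0.951, edgeR). A second principal component of all tested genes also placed the inhibitor group between, at −2.45 to 0.896. There col1-ACLP lay at −24.4 to −15.2 and the col1 libraries at 35.2 to 37.6, except replicate 2 (−29.2). The share of all tested genes that lay between was not counted.

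**Figure D5:**
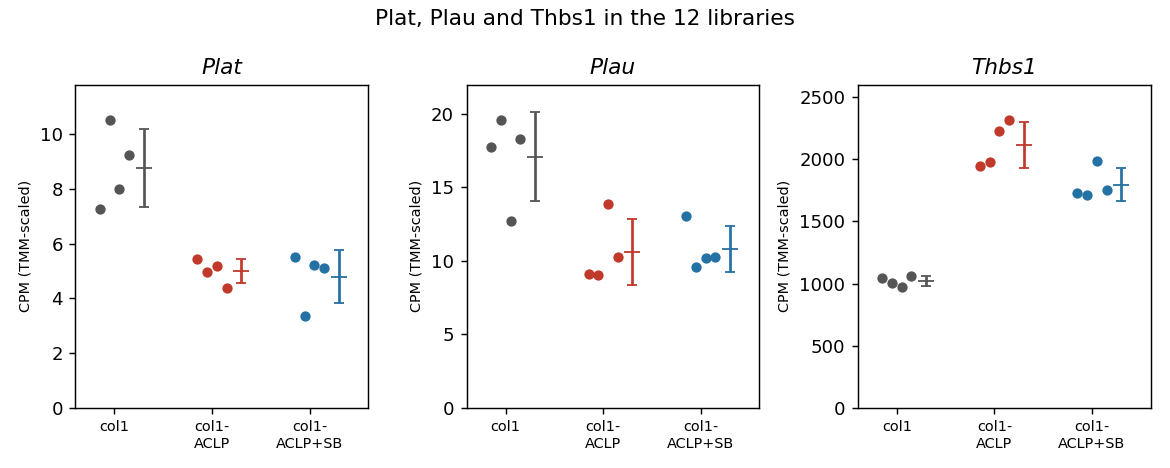
Level of Plat, Plau and Thbs1 (y axes, TMM-scaled CPM from 0) in the 4 libraries of each group (points), with the group mean and SD beside them. Thbs1 lies higher and Plat lower in both ACLP groups than on col1 without overlap, and Plau overlaps at 1 library in each ACLP group.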

How the data were processed

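Per the labels, libraries of 10T1/2 cells were enriched for poly(A) RNA. Per the study's methods, they were sequenced as paired-end reads and mapped with HISAT2 to GRCm39. The sample records name HISAT2 and mm10, and of 56017 gene identifiers shared with a GRCm39 annotation 85.5% had both ends within 1000 bases of it, so coordinates are given as GRCm39. For each of the 12 libraries the authors deposited unnormalized read counts by gene, together with a gene length. The counting tool, its strand setting and its handling of reads on several genes were not given in the sources used here. The members and the gene lists were chosen with earlier results of these data known.

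The test on the deposited counts was edgeR's (version 4.0.16, in R 4.3.3), with filterByExpr (minimum count 10), TMM factors from 0.966 to 1.02, and glmQLFit and glmQLFTest on 1 mean per group over all 12 libraries. P-values were adjusted by Benjamini-Hochberg over the 16465 genes tested, and a gene was called at an adjusted p-value under 0.05. Fold changes are from this fit. FPKM is CPM divided by gene length, and intervals are 95%. Replicate pairs differed by more than sampling noise (chi-square divided by its degrees of freedom, 7.32 to 19.7), so all 12 libraries were kept as separate samples. All 10 members are named whatever their result, and of the other lists the genes called and past a log2 fold change of 0.58 in any comparison. The result for 1 gene of these lists is not reported here. Alternatives were edgeR RLE factors, library size alone, other filters, fits on pairs of groups, a replicate block, DESeq2 1.42.0, limma-voom (limma 3.58.1), glmTreat, and each library left out in turn. The ratios of Timp3 to Timp2, Mmp14 to Mmp2 and summed MMPs to summed TIMPs, and the fit of the other lists without col1 replicate 2, were chosen after seeing the data. The procedure was tested on simulated data with known changes. A first bar on the share of changes recovered over genes of all levels was missed, mostly through genes at low level, with no call in the wrong direction, and it was replaced by a bar on genes at higher level with the procedure left as it was.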

Additional observations from a re-analysis of the deposited data

Results flagged for a closer look

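In 51 groups of 4 libraries (the levels of the 10 genes and their ratios), 5 had a highest or lowest library whose gap to its nearest neighbour exceeded Dixon's 95% critical value for 4 samples, as a part of the group's range. Chance flags about 1 in 20 groups. For Mmp9, col1-ACLP+SB replicate 3 was at 2.97 CPM, above the other 3 libraries of its group at 1.51 to 1.68 CPM. For Mmp11, col1-ACLP replicate 3 was at 73.4 CPM, below the other 3 at 74.1 to 74.2 CPM, a gap that is small beside the difference from col1. The others were genes with few counts, Mmp3 in col1 replicate 4 (0.511 CPM), Timp4 in col1 replicate 3 (0.152 CPM) and Timp4 in col1-ACLP+SB replicate 3 (0.0386 CPM). In both Timp4 groups 3 libraries were at 0, so any count in the remaining library is flagged and the rate of 1 in 20 does not apply.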

How the results depend on the processing

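Against col1, Timp3, Mmp14 and Timp2 in both groups with ACLP, and Mmp11 in col1-ACLP, kept their direction and were called in 21 of 21 alternatives to the call at an adjusted p under 0.05, and so was Timp3 between col1-ACLP+SB and col1-ACLP. The replicate numbers did not pair the libraries (correlations of deviations from −0.037 to 0.036), and with a replicate block 4, 3 and 1 members were called in the 3 comparisons, as without it, against 177 genes in place of 243 over all tested genes for col1-ACLP+SB against col1-ACLP. When the fold change was tested against 0.58 (glmTreat), 1, 0 and 0 members were called, since that test asks for a larger change. Between col1-ACLP+SB and col1-ACLP, 2 members were called with library size alone and with DESeq2, and 1 to 2 with a library left out. The second was Mmp14, with an adjusted p of 0.0427 by edgeR on library size alone. All genes called there numbered 243, but 428 with no filter, 568 with DESeq2, and 98 to 282 with a library left out (98 without col1-ACLP replicate 4, 120 without col1-ACLP+SB replicate 4, 150 without col1-ACLP replicate 3 and 154 without col1-ACLP replicate 1). Past 0.58 they numbered 21, but 46 with no filter, 46 with DESeq2, and 10 to 29 with a library left out (10 without col1-ACLP replicate 4 and 11 without col1-ACLP+SB replicate 4). The cause was not tested. Library size alone moved the share of higher calls over all genes from 53.1% to 38.3% for col1-ACLP against col1 and from 38.7% to 59.0% for col1-ACLP+SB against col1-ACLP.

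Changes of sign were seen only in members that passed no test. For Mmp2 the log2 fold change ran from −0.041 to 0.007 (without col1 replicate 2) on col1-ACLP against col1 with a library left out, reached 0.0007 by limma-voom for col1-ACLP+SB against col1 (−0.0384 to 0.0339 with a library left out), and −0.0239 to 0.0483 for col1-ACLP+SB against col1-ACLP. For Timp1 it ran from −0.1311 to 0.0183 on col1-ACLP and from −0.1186 to 0.0202 for col1-ACLP+SB against col1-ACLP with a library left out, and for Mmp13 from −0.7421 to 0.4178 in the latter comparison. Mmp3, Mmp13 and Timp4 had few counts, and the size of change that could be detected at such counts was not tested.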

Other observations

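The genes whose log2 CPM followed each member most closely over the 12 libraries were looked up over all tested genes. This is a description: the libraries share their groups, and no test is given. Timp3 was most like Hsp90b1, the endoplasmic reticulum chaperone Grp94 (Pearson r = 0.993, and 0.8104 after group means were removed), and Slc26a2, a sulfate transporter (r = 0.990). Hsp90b1 rose from 574 ± 14.4 CPM on col1 to 814 ± 25.0 CPM on col1-ACLP and was at 697 ± 28.7 CPM on col1-ACLP+SB, so it too lay between the other groups with SB431542. It is also the nearest protein-coding gene beside Timp3 on the higher side, 340703 bases away on the opposite strand. Mmp14 was most like Ralgds (r = 0.994) and Scara3 (r = 0.986), and Timp2 most like the complement gene C3 (r = 0.987) and the basement membrane gene Nid1 (r = 0.980). Mmp11 was most like Kifc2 (r = 0.966) and Orai2 (r = 0.933). For Mmp2, Timp1, Mmp9 and Mmp13 no gene exceeded r = 0.906.

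Among the members themselves, Mmp14 and Timp2 followed each other most closely (r = 0.963, and 0.757 within groups). Mmp2 and Timp2 had r = 0.378 over all 12 libraries but 0.9002 within groups. Mmp14 and Timp3 had r = −0.939 over all libraries and 0.0148 within groups, so their opposite course was between groups and was not seen from library to library within them.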
